A study of Mus musculus with 12 samples.

Results

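The genes described are 10 chaperones and folding helpers of the endoplasmic reticulum in Min6 cells, namely Hspa5, Hyou1, Hsp90b1, Dnajb11, Dnajc3, Sdf2l1, Calr, Pdia4, Creld2 and Manf. They were chosen by name: a row of the deposited table (a probe set of the array) counted as a member where the platform annotation gave it exactly 1 gene symbol and that symbol was on the list. All 10 genes had a row, and together they had 12 of the 21789 rows with 1 symbol. These rows cover 19938 genes. Dnajc3 and Pdia4 had 2 rows each. The row with the higher mean over all arrays stood for the gene, and the 2 rows of Dnajc3 held the same 12 values, so they count as 1 measurement.

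Min6 is a mouse insulinoma line, made from a beta cell tumour, that secretes insulin. The cultures of all groups began with 5 days in serum at 20% oxygen. Cells of the return condition (RC) then spent 5 days without serum at 5% oxygen and a last 5 days in 15% fetal calf serum at 20% oxygen. Cells of the defined condition (DC) spent their last 10 days without serum at 5% oxygen, in DMEM-F12 with 30 nM selenite, 100 µM putrescine, 20 nM progesterone and 100 µg/mL apo-transferrin. Cells of the classic condition (CC) stayed in DMEM with 15% serum at 20% oxygen throughout. Each group had 4 arrays of total RNA, 12 in all, taken from flasks of a single experiment. The p-values therefore measure the spread between these flasks. The serum medium also held 2-mercaptoethanol, which the serum-free medium did not list, and all media held antibiotics. Serum, oxygen, basal medium and supplements changed together, and a difference belongs to the combination. RC cells had 5 serum-free days and DC cells 10, so RC against DC holds that difference in length too.

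Each value is a log2 expression value per array, and a difference of 1 is a 2-fold change. The ± after a difference is limma's moderated SE, and the ± after a group mean is the SD. Values of different probe sets are not compared with each other, because probes differ in brightness. In whole cultures, fewer cells of a type and less RNA per cell cannot be told apart. The insulin gene was bright in all groups. Ins2 averaged 13.02 ± 0.05 in RC, 13.05 ± 0.04 in DC and 13.03 ± 0.03 in CC (SD, n = 4), and Iapp averaged 13.85 ± 0.10, 13.76 ± 0.04 and 13.86 ± 0.03 over RC, DC and CC arrays. Of 9 measured beta cell markers 2 were higher in DC than in CC and lower in RC than in DC, the transcription factor Nkx2-2 (0.29 ± 0.07 and, for RC against DC, -0.34 ± 0.07) and the zinc transporter Slc30a8 (0.31 ± 0.08 and -0.45 ± 0.08). Of 4 measured markers of other islet cells, Sst, the somatostatin of delta cells, averaged 12.25 ± 0.16 in RC, 10.55 ± 0.63 in DC and 11.81 ± 0.19 in CC (SD, n = 4). Its difference was 1.70 ± 0.24 in RC against DC (limma adjusted p = 0.00195) and -1.26 ± 0.24 in DC against CC (0.0066). Gcg, Ppy and Ghrl passed in none of the 3 comparisons. They stood at -0.17, -0.04 and 0.13 in DC against CC and at 0.13, -0.15 and -0.01 in RC against DC. None of the 20 measured markers of acinar, ductal, fibroblast, endothelial or immune cells passed limma's test in any of the 3 comparisons. At an unadjusted p under 0.05 there were 4 in DC against CC, 0 in RC against DC and 0 in RC against CC, and with array weights 2, 2 and 0 passed. The share of all rows under that unadjusted rule is not given here. All 20 lay above 0 in DC against CC, by a median of 0.17, and in RC against CC, by a median of 0.08, and 2 of 20 lay above 0 in RC against DC, with a median of -0.07. Their mean level ran, for instance, from 7.78 to 8.21 over the RC arrays, 7.81 to 8.19 over the DC arrays and 7.74 to 7.95 over the CC arrays for the 5 fibroblast markers. The part of these markers, Sst included, in the chaperone results was not tested.

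Proteins that are to be secreted are threaded into the endoplasmic reticulum, where chaperones bind them until they are folded and disulfide isomerases join their cysteines. In beta cells the main client is proinsulin. When unfolded protein builds up, the sensors Ire1 and Atf6 act through transcription factors (Xbp1 and the cleaved form of Atf6). These bind endoplasmic reticulum stress elements in the promoters of chaperone genes, and the sensor Perk slows translation. The 10 genes described are textbook targets of this unfolded protein response.

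The promoters are shown because the motif these genes are known to share can be read in most of them. The promoter table (RefSeq, GRCm38.p6, 250 bases before to 50 bases after each gene's start) held 8 of the 10 genes. The stress element ERSE, spelled CCAAT and CCACG with 9 bases of any kind between them, was searched on both strands. It was found in 5 of the 8, namely Hspa5, Hsp90b1, Calr, Dnajc3 and Creld2, which are among the 37 of 27025 genes in the table with a match (0.137%; 0.119% of the 32851 promoters). Hsp90b1 held it at 2 places. A second form, ERSE-II, spelled ATTGG and CCACG with 1 base between them and searched in the same way, was found in Dnajb11, among 12 genes of the table with a match (0.0444%). Neither was found in the windows of Pdia4 and Sdf2l1, and the windows of Hyou1 and Manf were not analysed here. The stretches around each match follow, 5′ to 3′ along the gene's strand, with the fixed letters of the motif in capitals. Where the capitals begin with CGTGG, the motif lies on the strand opposite to the gene.
Hspa5 chr2:34772005-34772063 (plus strand): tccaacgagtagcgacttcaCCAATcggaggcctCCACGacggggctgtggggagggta
Hsp90b1 chr10:86705618-86705676 (minus strand): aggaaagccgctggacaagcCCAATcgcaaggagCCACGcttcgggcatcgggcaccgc
Hsp90b1 chr10:86705513-86705571 (minus strand): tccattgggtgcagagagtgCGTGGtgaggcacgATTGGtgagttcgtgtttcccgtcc
Calr chr8:84847055-84847113 (minus strand): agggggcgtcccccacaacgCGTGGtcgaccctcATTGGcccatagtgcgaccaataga
Dnajc3 chr14:118937807-118937865 (plus strand): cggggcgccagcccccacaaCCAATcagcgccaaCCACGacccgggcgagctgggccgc
Creld2 chr15:88819500-88819558 (plus strand): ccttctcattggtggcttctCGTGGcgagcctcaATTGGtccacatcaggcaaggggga
Dnajb11 chr16:22857832-22857882 (plus strand): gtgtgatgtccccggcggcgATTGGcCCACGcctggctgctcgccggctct
The first base of the element lay 65 bases before the annotated start in Hspa5, 212 and 107 in Hsp90b1, 162 in Calr, 105 in Dnajc3 and 126 in Creld2. In Dnajb11 the ERSE-II form began at base 8 of the gene itself.

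Whole windows are shown for the gene with the largest difference between DC and CC among the 10, Dnajb11, and for Hspa5, the chaperone from whose promoter the element is best known, which differed by less.
Dnajb11 chr16:22857595-22857894 (plus strand): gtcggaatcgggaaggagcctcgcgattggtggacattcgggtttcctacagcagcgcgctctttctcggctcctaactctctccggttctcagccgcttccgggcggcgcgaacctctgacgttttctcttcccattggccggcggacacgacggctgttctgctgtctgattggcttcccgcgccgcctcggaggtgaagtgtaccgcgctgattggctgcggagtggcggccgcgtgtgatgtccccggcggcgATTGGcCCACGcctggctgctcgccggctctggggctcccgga
Hspa5 chr2:34771840-34772139 (plus strand): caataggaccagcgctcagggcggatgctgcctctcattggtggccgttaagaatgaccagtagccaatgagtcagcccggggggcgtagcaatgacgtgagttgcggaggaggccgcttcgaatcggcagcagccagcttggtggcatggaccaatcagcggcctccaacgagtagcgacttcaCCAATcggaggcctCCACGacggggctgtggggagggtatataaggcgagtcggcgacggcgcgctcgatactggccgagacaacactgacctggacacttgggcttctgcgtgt
The box CCAAT, which is part of both elements, was present in all 8 windows, and in 41.1% of the genes of the table. The short core ACGTG, found within many sites of hypoxia-inducible factors, was found in 3 of the 8 windows (Hspa5, Calr and Dnajc3) and in 21.8% of all genes, and none of these matches touched the fixed letters of an ERSE. A match is a description of the letters and does not show that a factor binds there.

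DC was set against CC to see how these genes stood after 10 days without serum at low oxygen. Of the 10 genes, 8 were lower in DC and none was higher (limma, adjusted p under 0.05 over all 35556 rows), namely Dnajb11, Dnajc3, Creld2, Pdia4, Manf, Hsp90b1, Hyou1 and Hspa5. Over all rows 4.32% were lower and 2.31% higher by the same rule. Calr and Sdf2l1 did not pass. All 10 differences were below 0, from -0.96 to -0.21 with a median of -0.39 on the log2 scale, while the median over all rows was 0.04. The DC and CC arrays did not overlap for 8 genes, all lower in DC, against 7.96% of all rows. The genes were chosen with earlier results of these arrays known, so the counts are no independent evidence of direction.

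**Figure D1:**
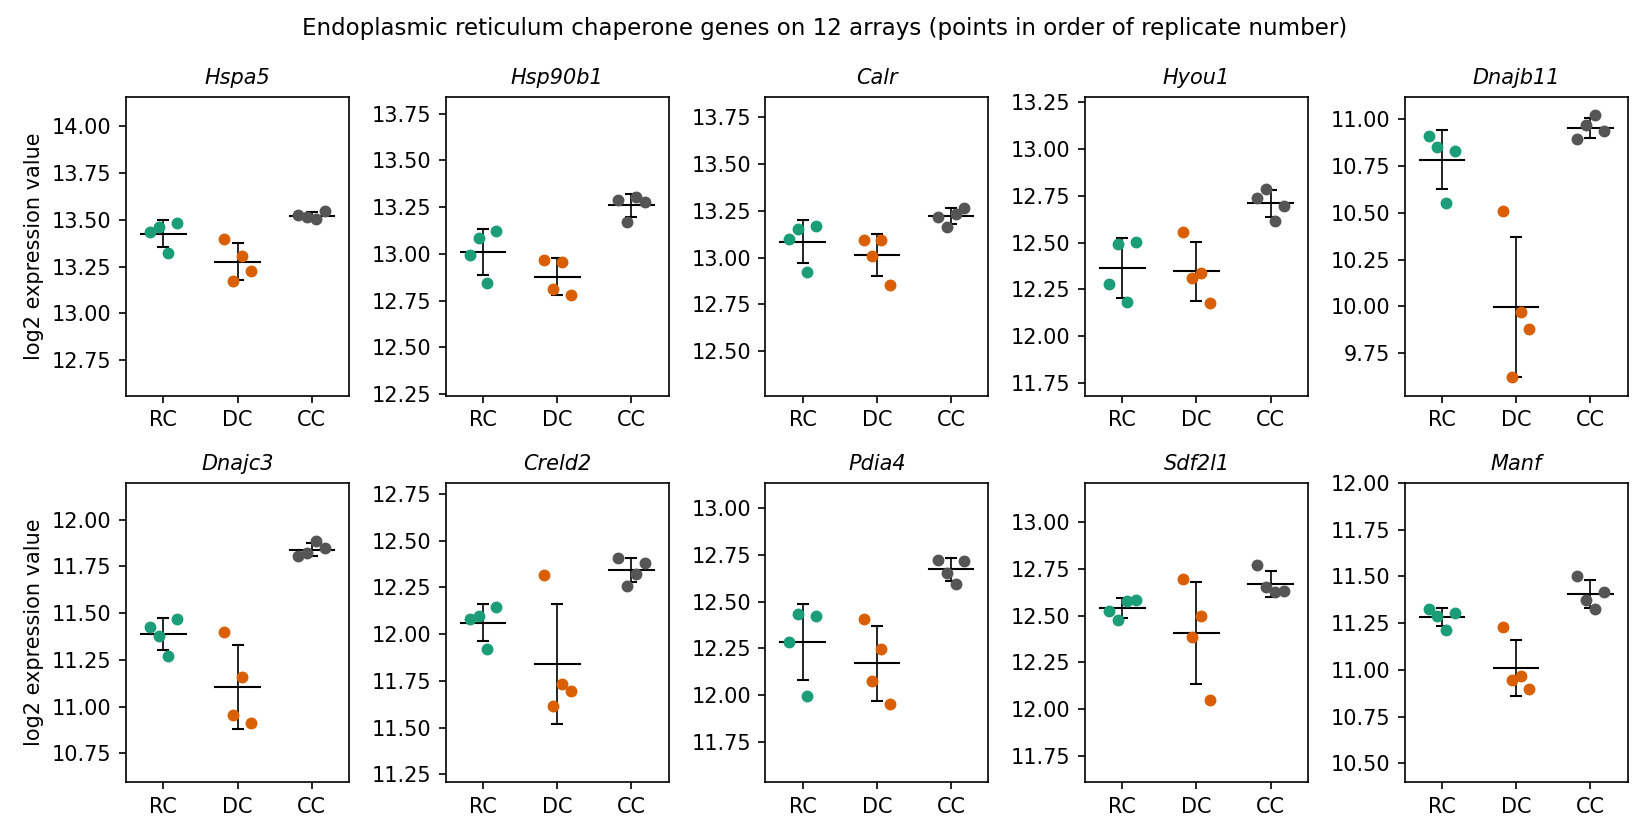
The log2 expression value of each gene (vertical axis) on the 4 arrays each of RC, DC and CC (points, in order of replicate number), with group means (lines) and SDs (error bars). Each panel spans an equal range of log2 units, and the DC points of Dnajb11 lie between 9.62 and 10.51, all below the CC points.

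The core of the folding machinery is Hspa5, the Hsp70-type chaperone BiP, together with Hyou1, a large Hsp70-related protein that exchanges nucleotide on BiP, and Hsp90b1, the Hsp90 of the endoplasmic reticulum. Hspa5 read 13.44, 13.46, 13.32 and 13.49 on RC arrays 1 to 4, 13.40, 13.17, 13.31 and 13.23 on DC arrays and 13.53, 13.51, 13.50 and 13.55 on CC arrays. The CC arrays lay close together and above every DC and RC array. The fall in DC was 0.25 ± 0.06 (limma's moderated SE, 4 arrays a group), or 1.19-fold, with a limma adjusted p of 0.0315. Hsp90b1 read 12.99, 13.09, 12.84 and 13.12 in RC, 12.97, 12.81, 12.96 and 12.78 in DC and 13.29, 13.17, 13.30 and 13.28 in CC. Here too no DC or RC array reached the lowest CC array, and the difference in DC was -0.38 ± 0.07 (1.30-fold; adjusted p = 0.00723). Hyou1 read 12.28, 12.49, 12.18 and 12.51 in RC, 12.56, 12.31, 12.34 and 12.18 in DC and 12.74, 12.79, 12.61 and 12.69 in CC. The RC and DC arrays of Hyou1 shared one range below that of CC, and the difference in DC was -0.36 ± 0.09 (1.29-fold; adjusted p = 0.037). The calls of Hspa5 and Hyou1 ended when CC 1, CC 2, CC 3, CC 4, DC 2, DC 3, DC 4 or RC 1 was left out (adjusted p up to 0.111 and 0.11), while that of Hsp90b1 held without each array in turn.

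Dnajb11 and Dnajc3 encode J-domain proteins of the lumen that hand unfolded clients to BiP and stimulate its ATPase. Mice without Dnajc3 lose beta cells and become diabetic. Dnajb11 read 10.91, 10.85, 10.55 and 10.83 on RC arrays, 10.51, 9.62, 9.97 and 9.88 on DC arrays and 10.89, 10.97, 11.02 and 10.94 on CC arrays. DC 1 stood above the other DC arrays and just under the lowest RC array, RC 3. The fall in DC was 0.96 ± 0.15, to 51.4% of the CC level (1.94-fold; adjusted p = 0.00177). Dnajc3 read 11.43, 11.38, 11.27 and 11.47 in RC, 11.40, 10.95, 11.16 and 10.91 in DC and 11.81, 11.82, 11.88 and 11.85 in CC. Its RC arrays lay between the other groups, with DC 1 inside the RC range, and none came near the CC arrays. It fell by 0.73 ± 0.10 in DC, to 60.1% of the CC level (1.66-fold; adjusted p = 0.00051). Both genes were called lower in DC under all 25 alternative settings and left-out arrays, with differences from -1.13 to -0.71 for Dnajb11 and from -0.83 to -0.56 for Dnajc3. Sdf2l1, whose product forms a complex with that of Dnajb11, read 12.53, 12.47, 12.58 and 12.58 in RC, 12.69, 12.38, 12.50 and 12.05 in DC and 12.77, 12.65, 12.63 and 12.63 in CC. Its DC arrays were widely spread, DC 1 lay within the CC range, and the difference of -0.26 ± 0.11 did not pass (95% interval -0.50 to -0.03; adjusted p = 0.201). Without DC 1, Sdf2l1 was at -0.36 and passed.

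Calr, calreticulin, is a lectin that holds newly made glycoproteins and binds calcium. It read 13.10, 13.15, 12.92 and 13.17 in RC, 13.10, 13.01, 13.09 and 12.86 in DC and 13.22, 13.17, 13.23 and 13.27 in CC. Its DC arrays all lay below the CC arrays, but by little, and the difference of -0.21 ± 0.07 did not pass (95% interval -0.37 to -0.05; adjusted p = 0.127). Pdia4, a disulfide isomerase, read 12.28, 12.44, 11.997 and 12.43 in RC, 12.41, 12.08, 12.24 and 11.95 in DC and 12.72, 12.65, 12.60 and 12.72 in CC. RC and DC overlapped and both stayed below CC. In DC Pdia4 differed by -0.50 ± 0.11 (1.42-fold; adjusted p = 0.016), a call that ended without CC 1 or without DC 2 (adjusted p up to 0.0591). A second probe set of Pdia4 averaged 8.20 in RC, 8.05 in DC and 8.20 in CC and did not pass (-0.16 ± 0.11; adjusted p = 0.387).

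Creld2 encodes a stress-inducible protein with EGF-like domains, part of which is secreted. It read 12.08, 12.10, 11.92 and 12.15 in RC, 12.32, 11.61, 11.73 and 11.69 in DC and 12.41, 12.26, 12.32 and 12.38 in CC. DC 1 lay inside the CC range while the other 3 DC arrays lay below every RC and CC array. Its difference in DC was -0.50 ± 0.13 (1.42-fold; adjusted p = 0.0341), and the call ended when any array but DC 1, RC 3 or RC 4 was left out (adjusted p up to 0.117). Manf is a secreted protein that binds BiP, and mice without it lose beta cells after birth. It read 11.32, 11.29, 11.21 and 11.30 in RC, 11.23, 10.94, 10.97 and 10.90 in DC and 11.50, 11.38, 11.33 and 11.42 in CC. All DC and RC arrays lay below the CC arrays, and DC 1 was the highest DC array again. Manf fell by 0.40 ± 0.08 in DC (1.32-fold; adjusted p = 0.0065), a call that held without each array in turn.

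The arrays within DC did not stand at one level. DC 1 was the highest DC array for all 10 genes, DC 4 the lowest for 7 and DC 2 for the other 3. With each gene centred on its mean over the 12 arrays, the median over the 10 genes was -0.01 on RC 1, 0.04 on RC 2, -0.17 on RC 3 and 0.06 on RC 4, was -0.01, -0.26, -0.13 and -0.36 on DC 1 to DC 4, and was 0.27, 0.16, 0.18 and 0.22 on CC 1 to CC 4. All 4 CC arrays were above all RC and DC arrays by this measure, and RC 3, DC 2 and DC 4 were low within their groups. These 3 arrays also had the narrowest spread of values over all rows. The interquartile range was 2.42 on RC 3 and 2.58 to 2.65 on the other RC arrays, 2.47 on DC 2, 2.44 on DC 4, 2.64 on DC 1 and 2.60 on DC 3, and 2.73, 2.75, 2.58 and 2.57 on CC 1 to CC 4. With the interquartile range as a covariate 5 of the 10 genes were lower in DC, without RC 3, DC 2 and DC 4 it was 4, and the rest of its part in the result was not tested. RC 3 was the lowest RC array for 9 of the 10 genes.

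**Figure D2:**
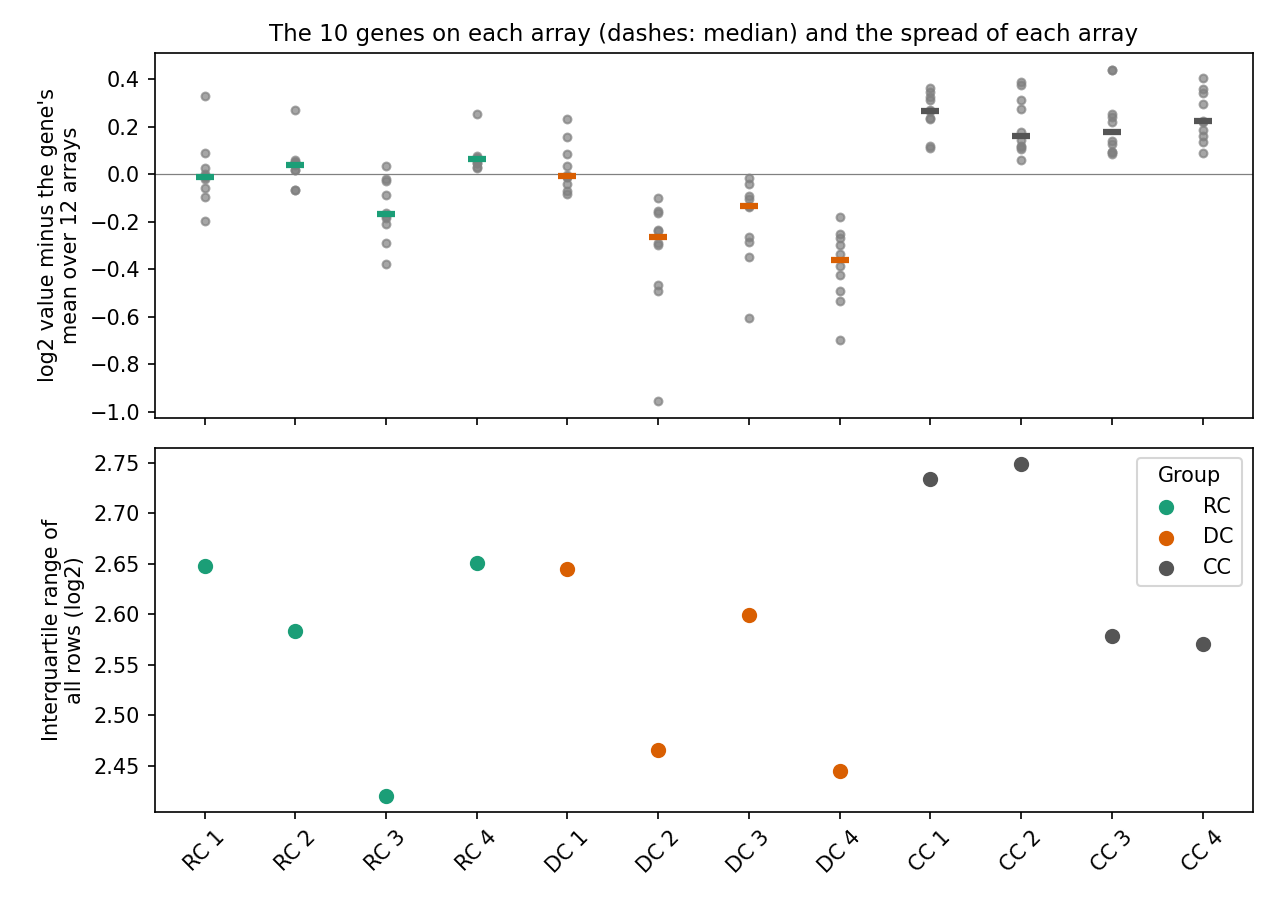
Upper panel: the log2 value of each of the 10 genes minus its mean over the 12 arrays (grey points) and their median (coloured dashes). Lower panel: the interquartile range of all rows on the same arrays, RC, DC and CC from left to right; RC 3, DC 2 and DC 4 are lowest in it, and the 4 CC arrays have the highest medians in the upper panel.

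Rows as bright as these genes were also lower in DC more often than rows at large. Among the 2929 rows at or above the mean of the dimmest member, 12.1% were lower in DC by limma's test, with a median difference of -0.04, and 18.3% had DC arrays wholly below CC. When each array was centred on these bright rows, a choice made after seeing the data, the 5 genes lower in DC were Dnajb11, Dnajc3, Pdia4, Manf and Hsp90b1, the same 5 as with the interquartile range as a covariate. The count of 8 was 4 without CC 1 or DC 2 and 5 without CC 2, CC 3, CC 4, DC 3, DC 4 or RC 1, and 9 without DC 1. Array weights called all 10 lower in DC, Calr included (-0.24; adjusted p = 0.0113). The weights were 0.63 and 0.54 on CC 1 and CC 2 but 2.65 and 3.01 on CC 3 and CC 4. Without CC 1 and CC 2 together the unweighted count was 2, and without CC 3 and CC 4 together it was 3. The genes' own spread was wider in DC. The SD over the 4 arrays was larger in DC than in CC for 10 of 10 genes, and for 62.9% of all rows, with a median SD over the genes of 0.18 in DC and 0.06 in CC.

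**Figure D3:**
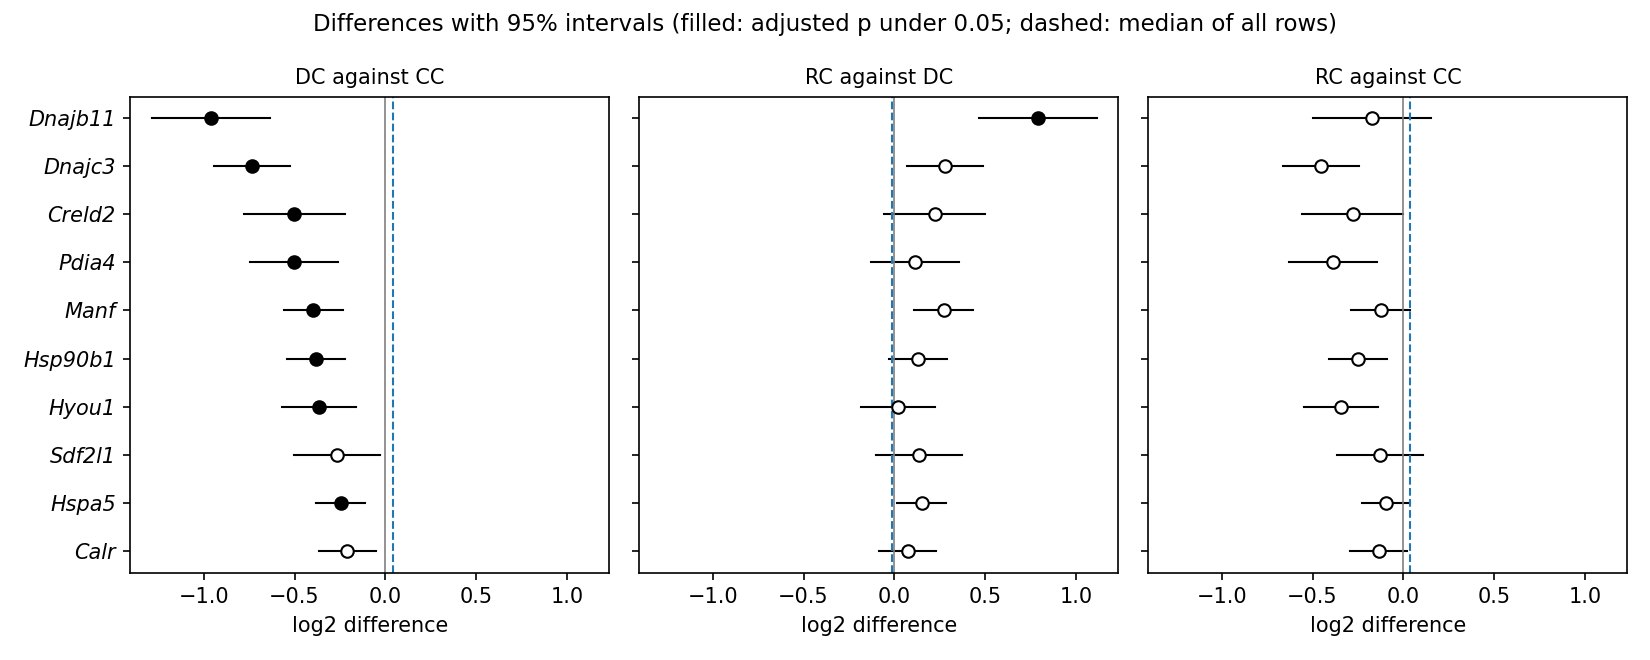
Log2 differences of the 10 genes (points; filled where limma's adjusted p was under 0.05) with 95% intervals (lines) for DC against CC, RC against DC and RC against CC, ordered by the first. The dashed line is the median of all rows. All points lie below 0 in the first panel, and Dnajb11 alone is filled in the second.

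RC was set against DC to see how cells with 5 days back in serum differed from cells kept without it. Dnajb11 was higher in RC and the other 9 genes did not pass (limma, adjusted p under 0.05); 1.45% of all rows were higher in RC and 1.18% lower by this rule. Dnajb11 rose by 0.79 ± 0.15, 1.73-fold (adjusted p = 0.013), with all 4 RC arrays above all DC arrays, as for 3.06% of all rows. For the remaining genes the RC and DC arrays overlapped. Manf came next in p at 0.27 ± 0.08 (adjusted p = 0.0962), followed by Dnajc3 at 0.28 ± 0.10 (0.209) and Hspa5 at 0.15 ± 0.06 (0.338). For Hyou1 the difference was 0.02 (95% interval -0.19 to 0.22), for Calr 0.07 (-0.09 to 0.23) and for Pdia4 0.11 (-0.13 to 0.36). The intervals of Sdf2l1 (-0.10 to 0.37), Hsp90b1 (-0.03 to 0.29) and Creld2 (-0.06 to 0.50) held 0 as well. The call of Dnajb11 ended without RC 1 (0.0544) and in a fit of RC and DC alone (0.0766), 4 genes were higher without DC 1 and 2 without RC 3.

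RC was also set against CC, to see how cells that had spent 5 days without serum and then returned differed from cells never taken out of it. None of the 10 genes passed limma's test, against 0.796% of all rows called in either direction, while 5 had an unadjusted p under 0.05. The 0.796% is for the adjusted rule, and the share of all rows at the unadjusted p is not given here. All 10 differences were below 0, from -0.45 to -0.10 with a median of -0.21. The RC arrays lay wholly below the CC arrays for 8 genes, against 5.45% of all rows and 13.5% of the bright rows. Dnajc3 was nearest to the threshold, at 73.0% of the CC level (-0.45 ± 0.10, limma adjusted p = 0.0537). It passed under 9 of 25 alternatives, among them without DC 1 or without DC 4. Its limma adjusted p ran from 0.00148 to 0.329 over the alternatives. Pdia4 (-0.39 ± 0.11; 0.177), Hyou1 (-0.34 ± 0.09; 0.151) and Hsp90b1 (-0.25 ± 0.07; 0.194) had intervals below 0 but did not pass after adjustment. For Dnajb11 the difference was -0.17 ± 0.15 (95% interval -0.50 to 0.15), and RC 1 lay within the CC range. Array weights, which gave RC 3 the lowest weight, called 4 genes lower in RC.

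The comparisons share arrays, so their values are set side by side only. Dnajb11 stood at 0.79 for RC against DC, -0.96 for DC against CC and -0.17 for RC against CC. Pdia4 stood at 0.11, -0.50 and -0.39 and Hyou1 at 0.02, -0.36 and -0.34 in that order. Whether a gene moved apart from the others was tested within arrays, as its value minus the median of the other 9 on the same array. In DC against CC this quantity changed by -0.60 for Dnajb11, -0.37 for Dnajc3 and -0.16 for Pdia4, and by 0.27 for Calr, 0.23 for Hspa5 and 0.23 for Sdf2l1. Each of these reached p = 0.0286 in an exact two-sided permutation test, the smallest that 4 against 4 arrays allows. The positive changes stand for smaller falls, as Calr (-0.21), Hspa5 (-0.25) and Sdf2l1 (-0.26) were themselves below CC. Dnajb11 (mean over all arrays 10.58) and Dnajc3 (11.44) were dimmer than Sdf2l1 (12.54), Calr (13.11) and Hspa5 (13.41). Manf (11.23), dimmer than Dnajc3, changed by -0.03. The part of probe brightness in these changes was not tested. Over all 30 exact permutation tests 11 had p = 0.0286, and none passed after Benjamini-Hochberg adjustment (lowest adjusted p = 0.0779). At this number of arrays 18 of the 30 would have had to reach that smallest p for any to pass, so the absence of a pass says little.

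Other genes, most of the secretory pathway, were followed in 9 lists that were also chosen with earlier results known. Their counts in DC against CC stand beside 4.32% of all rows lower and 2.31% higher, and 12.1% of the bright rows lower. Of 19 measured disulfide and proline isomerases and related proteins, 7 fell in DC against CC and none rose, with a median of -0.30 over the list. The proline isomerases Fkbp7 (-0.74 ± 0.12) and Fkbp14 (-0.59 ± 0.14) fell, as did Erp44 (-0.60 ± 0.13), which retains oxidases and other clients in the early secretory pathway, and Erp29 (-0.50 ± 0.11). The oxidase gene Ero1a, named after its value was seen, stood at 0.74 ± 0.22 and did not pass (adjusted p = 0.0658). Of 14 other chaperones and Hsp70 partners 3 fell, namely Sec63 (-0.54 ± 0.11) and Sec62 (-0.35 ± 0.09), which assist import through the translocon, and the disulfide reductase Dnajc10 (-0.44 ± 0.09). The median of that list was -0.23. The first count was 3 without CC 1 or DC 2, 4 without CC 3 and 2 without the 3 arrays of narrowest spread, with array weights 11 were lower and 2 higher, and over all alternatives it ran from 1 to 11. The second count was 6 without RC 3 and 8 with array weights, and ran from 0 to 8.

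Of 18 genes of the translocon and signal peptide handling, 9 fell, with a median of -0.28. Both subunits of the signal recognition particle receptor, Srpr (-0.69 ± 0.14) and Srprb (-0.60 ± 0.10), fell together with the translocon-associated Ssr3 (-0.59 ± 0.13) and the signal peptidase subunit Spcs3 (-0.49 ± 0.07). Of 18 genes of N-glycosylation 5 fell, with a median of -0.28, among them the mannosyltransferase Alg3 (-0.71 ± 0.10), the oligosaccharyltransferase subunits Magt1 (-0.53 ± 0.09) and Dad1 (-0.41 ± 0.08), and Prkcsh (-0.52 ± 0.14), a subunit of glucosidase II. None rose in either list. The translocon count ran from 4 to 11 over all alternatives. The glycosylation count was 3 without CC 1, CC 2, CC 3, CC 4 or DC 2, 8 without DC 3 or RC 3, 2 with arrays centred on bright rows and 13 with array weights, the lowest and highest of its alternatives.

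Of 17 genes of degradation from the endoplasmic reticulum, 5 fell and none rose, with a median of -0.31. Derl3, a stress-inducible channel component, fell by 1.06 ± 0.21, with the mannosidase-like Edem1 (-0.50 ± 0.08) and Edem3 (-0.36 ± 0.09) and the ubiquitin ligase Syvn1 (-0.48 ± 0.10). Of 17 genes of retrieval and transport to the Golgi 5 fell and none rose, with a median of -0.20, including Kdelr1 (-0.68 ± 0.10), a receptor that returns escaped chaperones, Sar1b (-0.52 ± 0.12), Tmed10 (-0.43 ± 0.11) and Surf4 (-0.40 ± 0.06). The degradation count was 3 without CC 1, CC 2, CC 3, CC 4, DC 2, DC 4, RC 1 or RC 2, 2 with arrays centred on bright rows, 1 without the 3 arrays of narrowest spread and 10 with array weights. The transport count was 3 without CC 1 and 2 without CC 3, CC 4, DC 2 or DC 4, and with array weights 9 were lower and 1 higher.

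Of 17 sensors and effectors of the unfolded protein response, 4 fell and 1 rose, with a median of -0.15. Xbp1, the transcription factor activated by Ire1, fell by 0.41 ± 0.07 (adjusted p = 0.00488), as did the membrane-bound factors Creb3l2 (-0.49 ± 0.10) and Creb3 (-0.41 ± 0.09) and, by 0.31, Atf6b. Ddit3, a factor induced through the Perk branch, rose by 0.41 ± 0.11 (adjusted p = 0.0449). The array gives total Xbp1 RNA, and its spliced form was not measured here. Trib3, another gene of that branch, named after its value was seen, stood at 0.42 ± 0.12 and did not pass (adjusted p = 0.0599). Atf4 (0.05 ± 0.10) and Ppp1r15a (0.09 ± 0.07), also of that branch and named after their values were seen, did not pass. Neither did Chac1 (-0.11 ± 0.16), Nupr1 (-0.20 ± 0.14) and Sesn2 (-0.29 ± 0.15), named in the same way. The falls numbered 2 without CC 1 or DC 2 and ran from 0 to 5 over all alternatives, and with array weights 5 genes were lower and 2 higher. Among 20 chaperones of the cytosol and mitochondria none passed limma's test (3 at an unadjusted p under 0.05, and 0 lower and 1 higher with array weights), with a median of -0.13. No share of all rows is given for that unadjusted count. Hspa9, the mitochondrial Hsp70, was at 0.38 ± 0.12 and Dnaja1, a cytosolic J protein, at -0.31 ± 0.13. Of 9 genes of insulin making the granin Chgb alone fell (-0.29 ± 0.06). It did not pass without CC 4 or DC 2, without the 3 arrays of narrowest spread or with arrays centred on bright rows. With array weights 2 of these genes were lower and 1 higher.

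**Figure D4:**
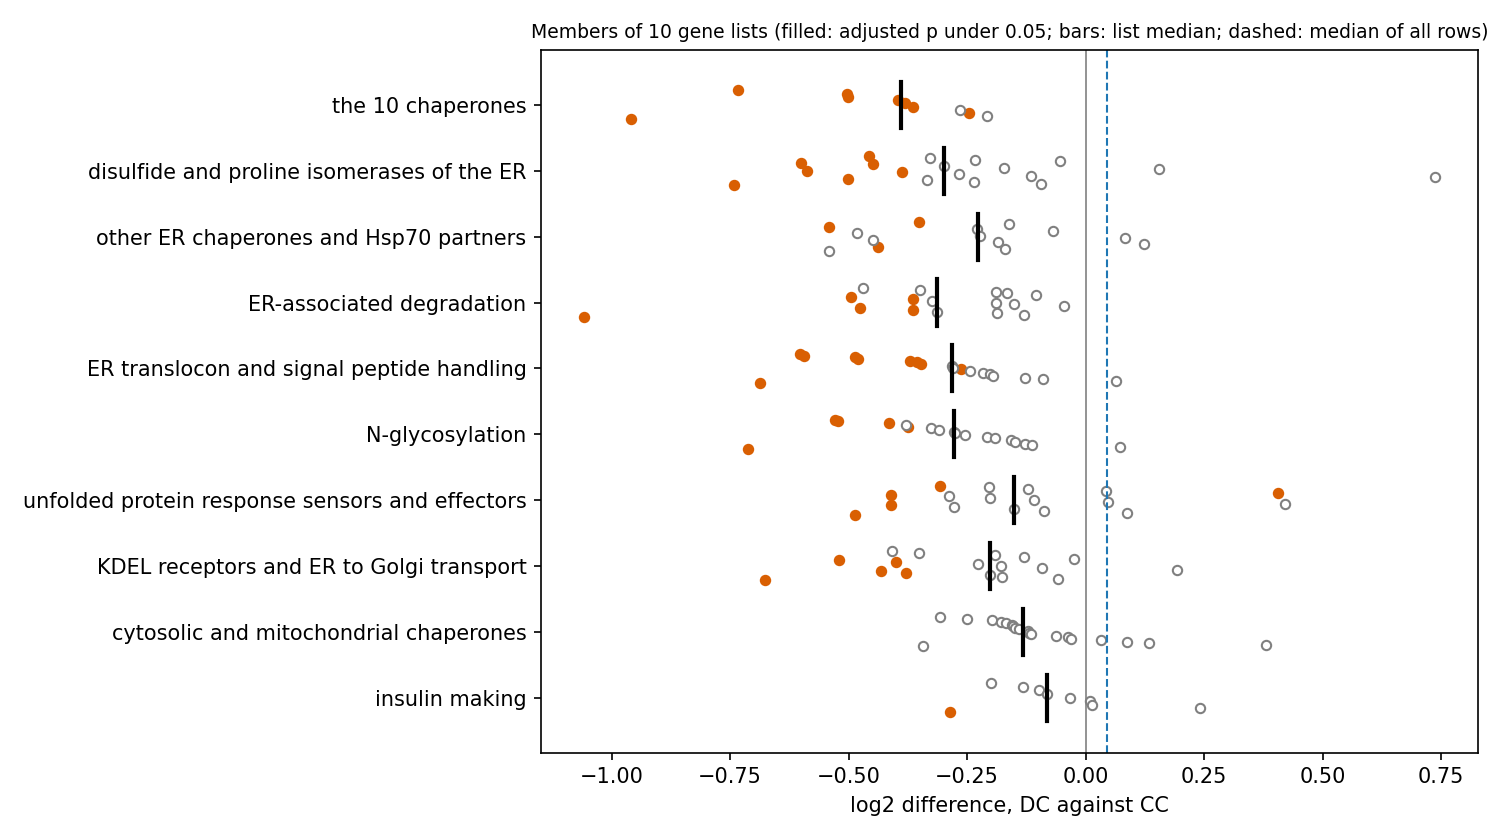
Log2 differences between DC and CC of the measured members of the 10 chaperones and the other 9 lists (1 point per gene, spread vertically for clarity; filled where limma's adjusted p was under 0.05). Black bars are list medians and the dashed line is the median of all rows. Filled points lie below 0 except for Ddit3.

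The calls after the return stand beside shares of all rows. In RC against DC 1.45% of all rows were higher and 1.18% lower. There 1 of 19 isomerases and related proteins and 1 of 18 translocon genes were higher, and 1 of 9 genes of insulin making was lower. In RC against CC 0.796% of all rows were called in either direction. There 1 of 18 translocon genes, 1 of 17 unfolded protein response genes and 2 of 17 transport genes were lower. No other list held a call. In RC against DC, Fkbp7 (0.64 ± 0.12; adjusted p = 0.014) and Spcs3 (0.42 ± 0.07; 0.0052) were higher in RC, and Scg5, a helper of prohormone processing, was lower (-0.36 ± 0.08; 0.0238). In RC against CC, Kdelr1 (-0.55 ± 0.10; 0.032), Xbp1 (-0.40 ± 0.07; 0.0339), Surf4 (-0.31 ± 0.06; 0.0362) and Sec61a1, the channel of the translocon (-0.28 ± 0.06; 0.0376), were lower in RC. How these calls stood under the alternatives is not given here. Over all rows the 283 calls of this comparison were 57 without RC 1 and 18 without CC 3 and CC 4 together. Xbp1 averaged 11.46 ± 0.09 in RC, 11.44 ± 0.14 in DC and 11.85 ± 0.05 in CC (SD, n = 4).

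The genes whose profile over the 12 arrays lay nearest to that of the 10 chaperones were sought among all named genes, by the root mean square difference from the median centred profile. Nearest was Eif2d, a factor of ribosome recycling and initiation (0.0489 log2 units), then the proton pump subunit Atp6v0a2 (0.0583), Tmem128 (0.0599), Urb2 (0.0602) and Mosmo (0.0606). They were followed by the collagen prolyl hydroxylase P3h1 (0.0608), the transport tether Uso1 (0.0609) and Slc38a6 (0.0619). For comparison, Hsp90b1 was at 0.0485, Manf at 0.0711 and Dnajb11, the member farthest away, at 0.314. The remaining members lay between 0.0831 (Hspa5) and 0.151 (Dnajc3). All members but Hsp90b1 were thus farther from the profile than the 8 genes, although members enter the median itself. All 8 genes were lower in DC than in CC, by 0.37 to 0.42 on the log2 scale, which follows from how they were found.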

How the data were processed

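Total RNA of 12 Min6 cultures had been labelled with biotin and hybridised to arrays, per the labels' protocols. The authors deposited 1 log2 expression value per probe set and array; that the scale is log2 was read from the range, 3.69 to 14.5. Probe summary and normalization: not given in the sources used here; array medians ran from 7.92 to 8.05, and no further normalization was applied. No detection calls or scan dates were used.

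The 35556 rows were named through the platform annotation (21789 with 1 symbol, 1621 with several, 12146 with none). A mean per condition was fitted with limma 3.58.1 in R 4.3.3 (9 residual degrees of freedom), with two-sided tests and Benjamini-Hochberg adjustment over all rows at 0.05. The spread of a row was estimated over all 12 arrays and moderated over rows by eBayes (3.261 prior degrees of freedom). The SE of a difference between 2 groups therefore also rests on the arrays of the third. The script was tested on simulated data. The 10 genes and the lists were chosen with earlier results of these arrays known. Named were all 10, per list up to 4 called genes of largest DC against CC difference (2 of smallest p where none was called), and the 8 nearest profiles; Atf6b, the cell markers, genes with a promoter motif and genes called after the return were added after their values were seen. Deviations of same-numbered arrays of different groups gave mixed correlations (-0.36 to 0.47, over 0.1 in 5 of 12 pairs). Those between arrays of number 1 were positive (CC 1 with DC 1 0.18, CC 1 with RC 1 0.47, DC 1 with RC 1 0.32). A pair of unlike number, DC 2 with RC 3, reached 0.53, and numbers were not taken as pairs. Alternatives were other normalizations, filters, variance models and left-out arrays. Some list members were not analysed here.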

Additional observations from a re-analysis of the deposited data

Results flagged for a closer look

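Creld2 on array DC 1 stood apart from the other DC arrays, at 12.32 against 11.61 to 11.73. Its gap to the nearest DC array was 0.832 of the group's whole range, above Dixon's 95% critical value for 4 values. It was the only one among 30 combinations of gene and group, and chance gives about 1 in 20. DC 1 was also the highest DC array for the other 9 genes.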

How the results depend on the processing

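In DC against CC the direction of all 10 genes held under every alternative run. The count of 8 genes lower in DC was 5 when each array's interquartile range entered as a covariate, 5 with arrays centred on their bright rows (chosen after seeing the data), 4 without the 3 arrays of narrowest spread, 2 without CC 1 and CC 2 together and 3 without CC 3 and CC 4 together. With single arrays left out it ran from 4 to 9. In RC against DC the count of 1 was 0 with only the 2 groups compared, 6 with array weights and 2 with the spread covariate, and ran from 0 to 4 with single arrays left out. In RC against CC the count of 0 was 1 with quantile normalization, with rows above the 25th percentile of row means, with rows of exactly 1 symbol, with only the 2 groups compared, with the spread covariate and without the 3 arrays of narrowest spread, 4 with array weights, and 0 to 1 with single arrays left out. With the replicate number as a block the counts were 6, 1 and 0 in the same order. The block ended the calls of Hspa5 and Hyou1 in DC against CC. The labels give same-numbered arrays no more than a number in common. With the other probe set of a gene the first count was 7. The difference of Hyou1 in RC against DC changed sign, to -0.0182 with the spread covariate, -0.0222 without the 3 arrays of narrowest spread, -0.0337 with arrays centred on their bright rows, -0.0378 without DC 4, -0.0239 without RC 2 and -0.0281 without RC 4 (0.0898 without DC 1), and that of Sdf2l1 to -0.0674 without the 3 arrays of narrowest spread. The causes were not tested.

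Over all rows, 2360 differed in DC against CC, 936 in RC against DC and 283 in RC against CC. With array weights these were 4840, 6413 and 2818, and without RC 3 they were 3718, 2892 and 311. The range over all alternatives was 991 to 4840, 462 to 6413 and 18 to 2818. The share of lower rows among those called in DC against CC was 65.1%, and 45.1% with arrays centred on bright rows, 51.0% with the spread covariate and 77.2% with arrays centred on a common median. In RC against CC it was 84.8%, and 57.2% with the spread covariate. Calr in DC against CC passed with array weights and under no other alternative (adjusted p 0.0113 to 0.337). The arrays number 4 a group and no signal over background was given, which limits the precision.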

Other observations

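Beyond the chaperones, 16 measured genes carried an ERSE in the promoter window, and these genes were looked at after the chaperone values were seen. In DC against CC 3 of them were lower and none was higher, with a median of 0.05, while 4.32% of all rows and 12.1% of the bright rows were lower. Those 3 were Derl3 (-1.06 ± 0.21; limma adjusted p = 0.00945), Syvn1 (-0.48 ± 0.10; 0.00945) and Alg12, a mannosyltransferase of N-glycosylation (-0.45 ± 0.09; 0.00886). Among the rest were genes of the same compartment that did not pass, Canx at -0.17 ± 0.06, Pdia6 at -0.23 ± 0.08 and the oxidase gene Ero1b at 0.15 ± 0.07, and genes with no known part in folding, such as Zfp57 at 0.11 ± 0.08. Of 8 other measured genes with an ERSE-II, the calcium-binding Nucb1 alone was lower in DC (-0.38 ± 0.09; 0.0242). In RC against DC and RC against CC none of these 24 genes passed.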
